A study of Homo sapiens with 6 samples.

Results

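ATOX1, CCS, SOD1, ATP7A, ATP7B, FTH1, FTL, TFRC, ACO1 and IREB2 handle copper and iron inside cells, and their transcripts were followed in colorectal cancer cells that overexpressed the RNA-binding protein RBM47. These 10 genes were taken by name from the 28491 genes of the deposited count table. The set was built around ATOX1 because ATOX1 was among the genes that passed the study's thresholds as lower in RBM47-OE (fold change over 1.5, p under 0.01), so its difference is given as a description without a test. All 10 genes passed the filter on low counts.

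HCT116, an established human colorectal carcinoma cell line, was transfected with Lipofectamine 2000, and polyadenylated RNA was sequenced as 3 libraries from cells given a control plasmid (NC) and 3 libraries from cells given an RBM47 plasmid (RBM47-OE). Harvest was at 48 h according to the labels. Both groups therefore carried a plasmid, and each library came from a transfected pool of 1 cell line. The labels name the plasmid pcDNA3.1-3xFlag-RBM47 and DMEM medium, whereas the study's methods name pIRES-hrGFP-1a and McCoy's 5A medium. Nothing says whether the replicates were separate cultures, so p-values measure the spread between these libraries, which may be technical. In bulk RNA, fewer cells that express a gene and less RNA per cell cannot be told apart.

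Copper enters the cytosol as a reactive ion and is passed on by chaperones. ATOX1 hands it to the pumps ATP7A and ATP7B, which load secreted enzymes and export the surplus, and CCS hands it to the superoxide dismutase SOD1. Iron is taken up with transferrin through TFRC and stored in ferritin, a shell of FTH1 and FTL chains. The iron regulatory proteins ACO1 (IRP1) and IREB2 (IRP2) bind a hairpin, the iron-responsive element, in ferritin and TFRC transcripts. Binding near the start of a ferritin transcript blocks its translation, and binding behind the coding sequence of TFRC protects that transcript from decay.

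The elements are shown because they tie 5 of the 10 genes together, 3 as targets and 2 as readers. The transcript strand of the GENCODE 44 canonical UTRs was searched for CNNNNNCAGTGN followed by 5 bases able to pair with the 5 bases before the loop, and the genomic positions are on GRCh38. Sequences are given 5′ to 3′ in DNA letters, with the bulged C and the 6-base loop in capitals. FTH1 and FTL each held 1 match in exon 1 of the 5′ UTR, and TFRC held 4 in exon 19 of the 3′ UTR.
FTH1, chr11:61967575-61967601, minus strand: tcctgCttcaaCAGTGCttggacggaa
FTL, chr19:48965336-48965362, plus strand: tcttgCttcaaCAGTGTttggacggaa
TFRC, chr3:196050980-196051006, minus strand: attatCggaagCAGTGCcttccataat
TFRC, chr3:196050576-196050602, minus strand: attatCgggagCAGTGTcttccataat
TFRC, chr3:196050511-196050537, minus strand: tgtatCggagaCAGTGAtctccatatg
TFRC, chr3:196050464-196050490, minus strand: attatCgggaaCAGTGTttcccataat
The FTH1 and FTL elements were identical at 25 of 27 bases, and pairs of TFRC elements at 17 to 25 of 27. A match is a description and not a bound site. Among canonical transcripts, FTH1 and FTL included, a match lay within the first 209 bases of 18 of 16521 (0.109%). Among 3′ UTRs, that of TFRC included, a match lay within the first 2661 bases of 30 of 3851 (0.779%). The most in any of these 3′ UTRs was 4, which is the count of TFRC itself. The UTRs of the other 7 genes held no match to these letters.

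The genes are spread over the genome, with only CCS and FTH1 on the same chromosome. On GRCh38 the copper genes lie at chr11:66593153-66606019 (CCS, plus strand), chr21:31659666-31668931 (SOD1, plus), chrX:77910690-78050395 (ATP7A, plus) and chr13:51930436-52012125 (ATP7B, minus), and ATOX1 is placed with its values. The iron genes lie at chr11:61959718-61967634 (FTH1, minus strand), chr19:48965309-48966879 (FTL, plus), chr3:196012511-196082153 (TFRC, minus), chr9:32384603-32454769 (ACO1, plus) and chr15:78437431-78501453 (IREB2, plus).

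RBM47 itself checked the labels. Its FPKM (fragments scaled to gene length and to the mapped fragments of the library) was 1.91, 2.33 and 1.94 with the control plasmid and 131.3, 130.41 and 127.04 with RBM47-OE, a log2 fold change of 5.90 (SE 0.096, edgeR adjusted p = 1.7e-25). The libraries held 26792409 to 35477983 counts on genes. Every pair of libraries differed by more than sampling noise. The chi-square per degree of freedom was 3.26 to 4.56 within NC. Within RBM47-OE it was 8.35 for replicates 2 and 3 but 16.5 and 18.0 for replicate 1 against each of them. Against the NC libraries it was 15.6 to 20.7 for RBM47-OE replicate 1 and 38.6 to 51.7 for replicates 2 and 3. RBM47-OE replicate 1 thus stood apart from its group and lay about as near to NC as to replicates 2 and 3. Relative to the NC mean, genes rich in G and C were lower in the RBM47-OE libraries, with a Spearman rho across 16233 genes of -0.42, -0.59 and -0.68 in replicates 1, 2 and 3. Fits with a per-library offset for GC content are therefore given beside the results they change. The trend ran the same way in replicates 1, 2 and 3, so an offset also removes any group difference that follows GC content. A technical trend and an effect of RBM47 cannot be told apart in this design. The source of the trend was not tested, and neither kind of fit is taken as the correct one. The summed FPKM of 6 colon epithelial markers was 1883 to 2052 in NC and 1751 to 1979 in RBM47-OE, with VIL1 at only 5 to 20 counts. The summed FPKM of erythroid markers, whose cells use many of the same iron genes, was 0.40 to 1.54 in NC and 0.66 to 1.07 in RBM47-OE. That of leukocyte and stromal markers was 1.80 to 2.02 in NC and 1.48 to 1.83 in RBM47-OE.

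Among the 9 genes beside ATOX1, ATP7A, IREB2 and TFRC rose in RBM47-OE, SOD1 and FTL fell, and CCS, ATP7B, FTH1 and ACO1 did not pass the test. That is 55.6% of 9 genes at an edgeR adjusted p under 0.05, where 35.9% of all 16260 genes tested passed, 19.1% as higher and 16.9% as lower. The study applied its thresholds to DESeq2 results, and here they were applied to edgeR p-values. No gene of the 9 reached them, and 2.38% of all genes tested did. The NC and RBM47-OE libraries did not overlap for 4 of the 9, against 46.5% of all genes. Nothing is read from these shares about the 9 genes as a set. With the GC trend of the exons removed, none of the 9 passed (14.5% of all genes did), and with that of the canonical transcript CCS passed as higher and SOD1 as lower (13.4% of all genes).

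**Figure D1:**
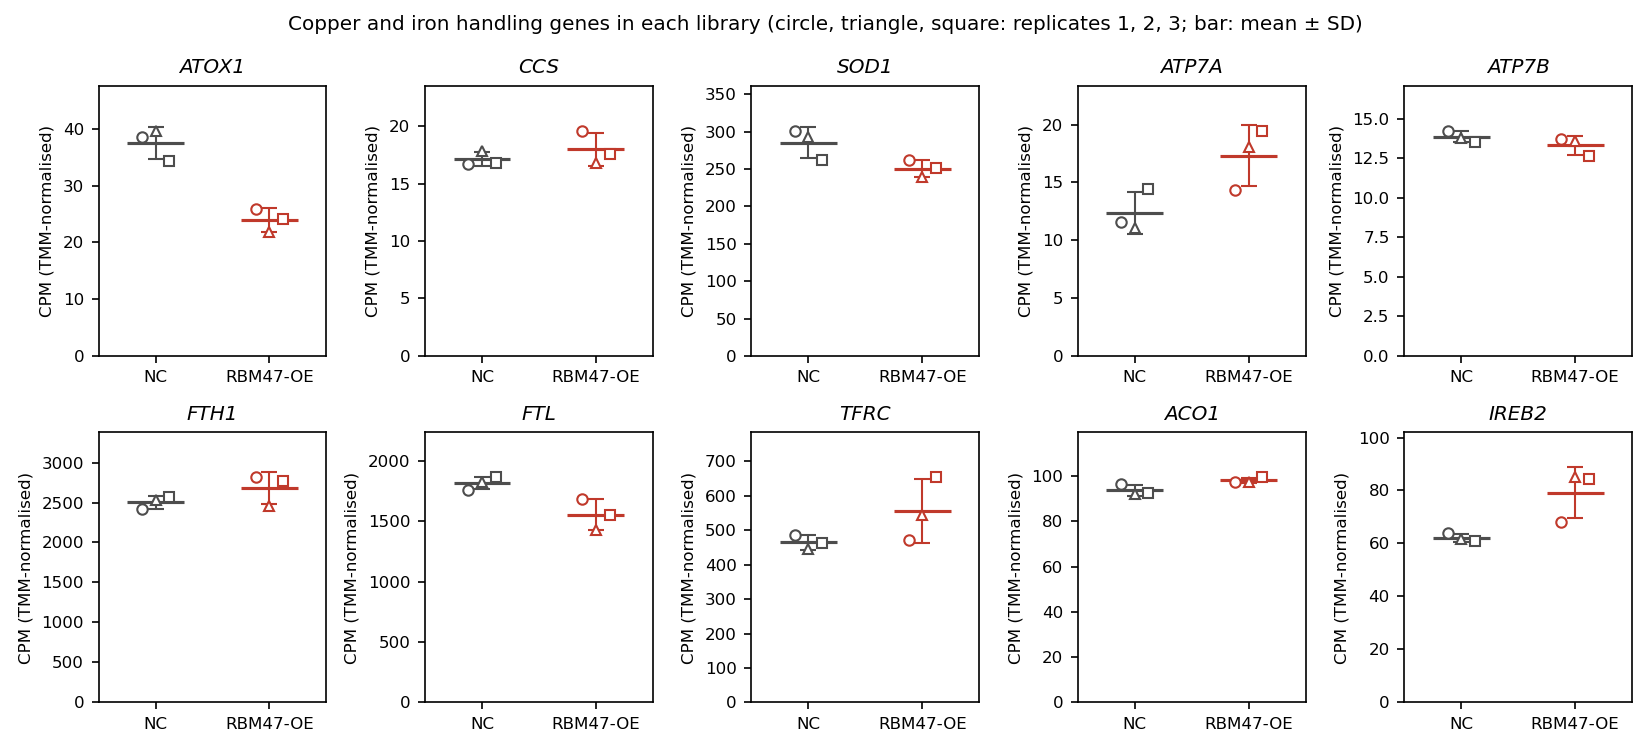
CPM (read counts scaled with TMM factors to a common library size) of the 10 genes in each of the 6 libraries, with points for libraries and bars for the mean ± SD of 3. ATOX1, SOD1 and FTL lay lower in every RBM47-OE library and IREB2 and ACO1 higher, while the groups overlapped for the other 5 genes.

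The copper chaperone ATOX1 was at 38.6, 39.6 and 34.3 CPM in NC and at 26.0, 21.8 and 24.2 CPM in RBM47-OE. Every RBM47-OE library lay under every NC library. The mean went from 37.5 ± 2.79 to 24.0 ± 2.09 CPM (SD, n = 3), a fold change of 0.639 and a log2 fold change of -0.65 (SE 0.091). The log2 threshold that selected it was 0.58 in either direction. Of the other genes of the set, ATP7A came nearest to it on the higher side, at 0.49, and FTL on the lower side, at -0.22. The log2 fold change was -0.47 with the GC trend of the canonical transcript removed and -0.69 with that of the exons, and leaving out single libraries gave -0.71 to -0.58.

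ATOX1 lies on chromosome 5 (GRCh38, 151742316 to 151772532, minus strand). Its annotated exons span 5239 bases, whereas its canonical transcript has 471, and the deposited FPKM implies a length of 5926 bases. GC content was 46.7% over the exons and 56.7% over the canonical transcript. On the opposite strand, G3BP1 shares 130 exonic bases with ATOX1, and it was at 286.0 ± 1.03 CPM in NC and 326.9 ± 38.2 CPM in RBM47-OE (SD, n = 3, edgeR adjusted p = 0.054). The strand setting of the counting is not given in the sources used here. The study's qPCR oligos for ATOX1 show which stretch was assayed. The oligo named forward, cctttggtccatcctgtg, matched the opposite strand in the 3′ UTR at chr5:151746285-151746302. The oligo named reverse, ggtctgcattgaatctgag, matched the transcript strand in the coding sequence at chr5:151746397-151746415. Both lie in exon 3 and bound an amplicon of 131 bases, and the qPCR values were not analysed here.

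CCS, which delivers copper to SOD1, was at 16.7, 17.8 and 16.8 CPM in NC and at 19.6, 16.8 and 17.6 CPM in RBM47-OE. The groups overlapped, and the log2 fold change was 0.07 (SE 0.099, edgeR adjusted p = 0.62, 95% interval -0.13 to 0.27). It became 0.28 (edgeR adjusted p = 0.025) with the GC trend of the canonical transcript removed.

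SOD1, the cytosolic copper and zinc superoxide dismutase, was at 300.9, 293.5 and 262.0 CPM in NC and at 261.5, 239.3 and 250.8 CPM in RBM47-OE. NC replicate 3 and RBM47-OE replicate 1 nearly met, but the groups did not overlap. The log2 fold change was -0.19 (SE 0.073, edgeR adjusted p = 0.045). This call was lost without NC replicate 1 (edgeR adjusted p = 0.24), NC replicate 2 (0.20), RBM47-OE replicate 2 (0.13) or RBM47-OE replicate 3 (0.072), and it held without RBM47-OE replicate 1 (0.010). The 2 GC offsets moved it in opposite ways, to -0.04 for the exons (edgeR adjusted p = 0.75, GC content 54.4%) and to -0.33 for the canonical transcript (edgeR adjusted p = 0.0022, GC content 44.2%).

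The copper pump ATP7A was at 11.6, 11.1 and 14.39 CPM in NC and at 14.36, 18.1 and 19.4 CPM in RBM47-OE. RBM47-OE replicate 1 lay just under NC replicate 3, and the others were higher than any NC library. The log2 fold change was 0.49 (SE 0.12, edgeR adjusted p = 0.0030), and 0.61 without RBM47-OE replicate 1. It was 0.13 (edgeR adjusted p = 0.43) and 0.16 (0.33) with the GC trend of the exons and of the canonical transcript removed. ATP7A shares 97 exonic bases on the same strand with PGK1, a glycolytic kinase with 49839 to 65303 counts per library against 304 to 581 for ATP7A. PGK1 itself had a log2 fold change of -0.08 (edgeR adjusted p = 0.45).

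ATP7B, the related pump best known from the liver, was at 14.2, 13.8 and 13.6 CPM in NC and at 13.7, 13.6 and 12.7 CPM in RBM47-OE. The groups overlapped, and the log2 fold change was -0.06 (SE 0.10, edgeR adjusted p = 0.72, 95% interval -0.27 to 0.16). Its sign turned when library totals were used for scaling (0.0069) and in the fit with the canonical GC offset (0.04).

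**Figure D2:**
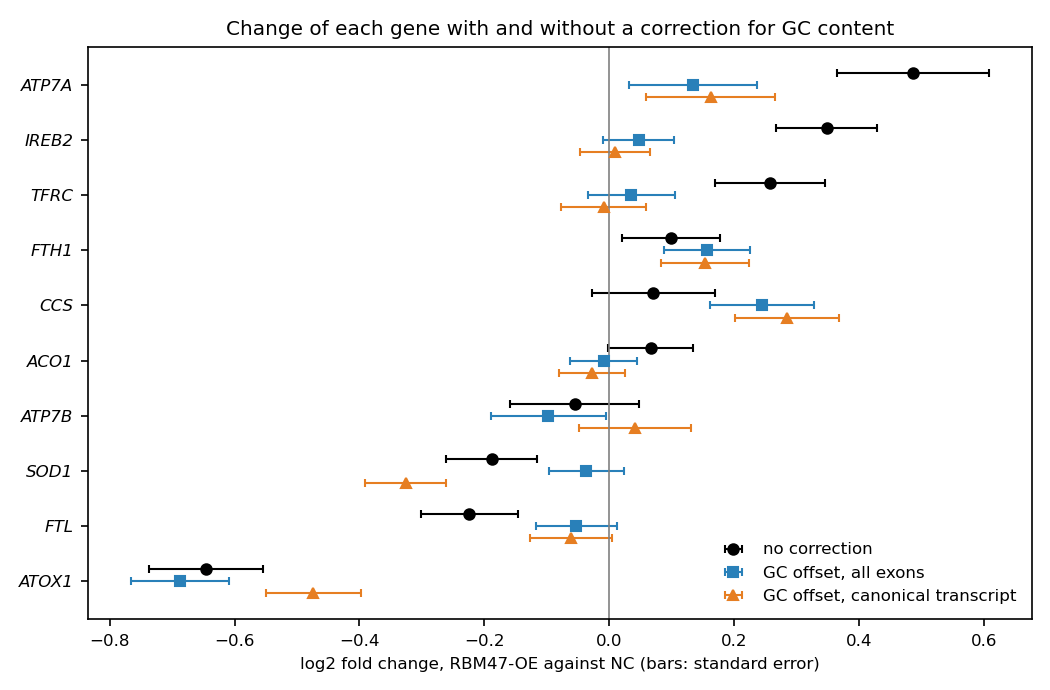
Log2 fold change of RBM47-OE against NC for the 10 genes, from the fit without a GC term and from the fits with the GC trend of the exons or of the canonical transcript removed, with bars for the standard error. ATOX1 kept a value between -0.69 and -0.47 in the 3 fits, whereas IREB2 went from 0.35 to 0.05 and 0.01, and TFRC from 0.26 to 0.04 and -0.01.

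FTH1, the ferritin chain with ferroxidase activity, was at 2414, 2528 and 2569 CPM in NC and at 2813, 2456 and 2775 CPM in RBM47-OE. The groups overlapped, and the log2 fold change was 0.10 (SE 0.078, edgeR adjusted p = 0.35, 95% interval -0.06 to 0.26). BEST1 shares 1267 exonic bases with FTH1 on the opposite strand, at 2737 to 3646 counts against 63434 to 92827 for FTH1. The 9 listed FTH1 pseudogenes held 37 to 66 counts per library together, and only uniquely mapped reads had been counted.

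FTL, the ferritin chain that favours iron core formation, was at 1762, 1822 and 1863 CPM in NC and at 1684, 1424 and 1555 CPM in RBM47-OE. Every RBM47-OE library lay under every NC library, and the log2 fold change was -0.22 (SE 0.078, edgeR adjusted p = 0.026). The call was lost without NC replicate 1 (edgeR adjusted p = 0.067), NC replicate 2 (0.11), NC replicate 3 (0.12), RBM47-OE replicate 2 (0.079) or RBM47-OE replicate 3 (0.051), and the adjusted p was 0.0011 without RBM47-OE replicate 1. With the GC trend removed the log2 fold change was -0.05 for the exons and -0.06 for the canonical transcript (edgeR adjusted p = 0.65 and 0.60).

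TFRC, the transferrin receptor, was at 487.1, 444.6 and 464.0 CPM in NC and at 470.8, 544.3 and 653.2 CPM in RBM47-OE. RBM47-OE replicate 1 lay within the NC range, and the other RBM47-OE libraries lay above it. The log2 fold change was 0.26 (SE 0.088, edgeR adjusted p = 0.024). Leaving out RBM47-OE replicate 1 gave 0.37. Leaving out RBM47-OE replicate 3 gave 0.13 (edgeR adjusted p = 0.25), and the call was also lost without NC replicate 2 (0.13) or NC replicate 3 (0.078). With the GC trend removed the log2 fold change was 0.04 and -0.01 for the exons and the canonical transcript (edgeR adjusted p = 0.79 and 0.95).

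IREB2, the iron regulatory protein that is degraded when iron is plentiful, was at 63.9, 61.6 and 61.0 CPM in NC and at 68.0, 84.9 and 84.4 CPM in RBM47-OE. The groups did not overlap, with RBM47-OE replicate 1 nearest to NC. The log2 fold change was 0.35 (SE 0.081, edgeR adjusted p = 0.0018), and 0.45 without RBM47-OE replicate 1. The call held with each library left out in turn, but the log2 fold change was 0.05 and 0.01 (edgeR adjusted p = 0.65 and 0.94) with the GC trend of the exons and of the canonical transcript removed.

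ACO1, which is an aconitase when it carries an iron-sulfur cluster and a regulatory protein when it does not, was at 96.4, 92.0 and 92.7 CPM in NC and at 97.5, 97.4 and 99.4 CPM in RBM47-OE. The groups did not overlap, yet the log2 fold change was 0.07 (SE 0.069, edgeR adjusted p = 0.49, 95% interval -0.07 to 0.21). Both ferritin transcripts and TFRC carry elements that the products of these 2 genes read. In the fit without a GC term FTL fell, TFRC rose and FTH1 did not pass the test. With the GC trend removed neither FTL nor TFRC passed it. Whether the elements have a part in these values was not tested.

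GC content of the canonical transcript ran from 38.2% in IREB2 and 38.9% in ATP7A to 61.6% in CCS. The 3 genes that rose had the lowest values, the third being TFRC at 40.9%. Over the 10 genes, Spearman's rho between GC content and the log2 fold change was -0.70, a description over genes that were measured in the same libraries. It includes ATOX1, around whose lower value the set was built. GC content of the canonical transcript was also brought in after the data were seen, so no conclusion is drawn from this rho.

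The levels of the 10 genes spanned a wide range, and their order on the FPKM scale differed in 1 place between the groups. In NC, mean FPKM was 1796 ± 56.8 for FTL, 1076 ± 38.7 for FTH1, 124.5 ± 8.73 for SOD1, 51.4 ± 2.15 for TFRC and 10.7 ± 0.221 for ACO1 (SD, n = 3). Below these came CCS at 6.89 ± 0.267, ATOX1 at 6.17 ± 0.456, IREB2 at 4.95 ± 0.104, ATP7A at 0.903 ± 0.137 and ATP7B at 0.633 ± 0.0153. No neighbours in this order overlapped between libraries in NC. In RBM47-OE IREB2, at 6.64 ± 0.926, lay above ATOX1, at 4.14 ± 0.266, and CCS and IREB2 overlapped.

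The length used for a gene sets its place in this order. Per kilobase of canonical transcript, ATOX1 was at 79.6 ± 5.93 CPM in NC and 50.9 ± 4.45 CPM in RBM47-OE, which put it at rank 5 of the 10 in NC in place of rank 7. On this scale FTL and FTH1 overlapped in NC, at 2084 and 2081 CPM per kilobase, and in RBM47-OE FTH1, at 2229, lay above FTL, at 1784. Ferritin transcripts were abundant throughout, with FTH1 taking 0.237% to 0.282% of all counts and FTL 0.150% to 0.182%.

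**Figure D3:**
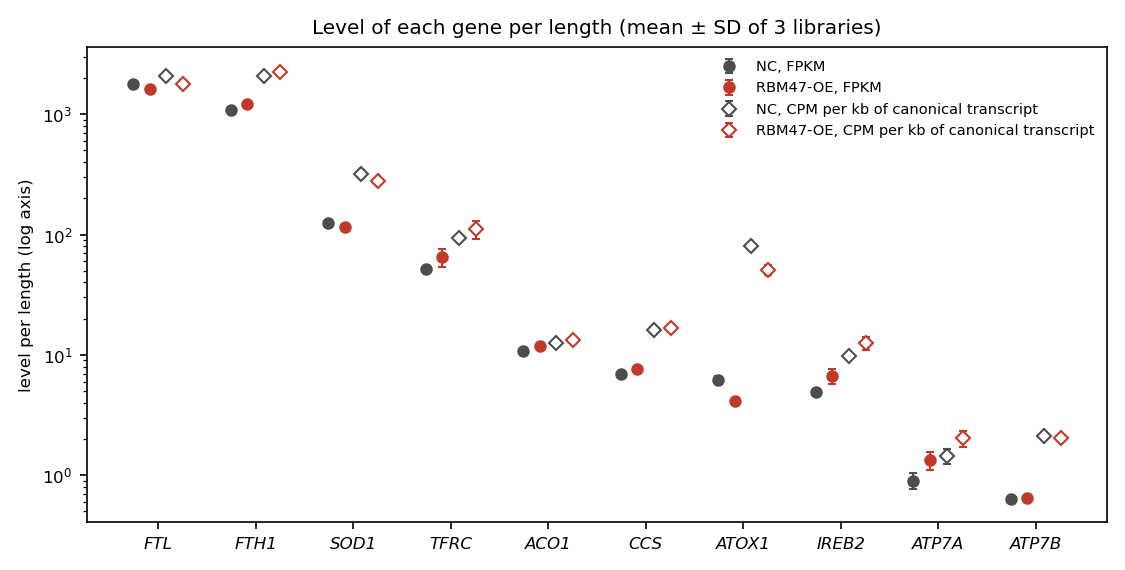
Levels of the 10 genes in NC and RBM47-OE on a log axis, as deposited FPKM (filled circles) and as CPM per kilobase of the canonical transcript (open diamonds), each the mean ± SD of 3 libraries. ATOX1 lies at 6.17 FPKM but at 79.6 CPM per kilobase of canonical transcript in NC, and the ferritins lead on both scales.

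Ratios of partner genes within a library do not depend on how libraries are scaled. The FTL to FTH1 ratio of counts was 0.730, 0.721 and 0.725 in NC and 0.599, 0.580 and 0.560 in RBM47-OE. The groups did not overlap, and the mean log2 ratio was lower by a log2 difference of -0.32. An exact two-sided permutation test gave p = 0.10, the smallest that 3 against 3 libraries allow, or 0.167 after Benjamini-Hochberg adjustment over 5 ratios. The difference was -0.21 in each fit with a GC offset.

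The CCS to SOD1 ratio was 0.0555, 0.0607 and 0.0642 in NC and 0.0749, 0.0701 and 0.0701 in RBM47-OE, a log2 difference of 0.26. The ACO1 to IREB2 ratio was 1.51, 1.50 and 1.52 in NC and 1.43, 1.15 and 1.18 in RBM47-OE, a log2 difference of -0.27. Neither pair of groups overlapped, and both exact permutation tests gave p = 0.10 (adjusted 0.167). The second difference was -0.06 and -0.04 in the fits with a GC offset, and the first 0.28 and 0.61.

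The ATP7A to ATP7B ratio was 0.813, 0.803 and 1.06 in NC and 1.05, 1.33 and 1.54 in RBM47-OE, a log2 difference of 0.54 with an exact permutation p of 0.20 (adjusted 0.25). It was 0.23 and 0.12 in the fits with the GC offset of the exons and of the canonical transcript. The TFRC to FTH1 ratio was 0.202, 0.176 and 0.181 in NC and 0.167, 0.222 and 0.235 in RBM47-OE, a log2 difference of 0.15 with an exact permutation p of 0.40. Both overlapped between the groups, and the TFRC to FTH1 difference turned to -0.12 and -0.16 in the fits with a GC offset.

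**Figure D4:**
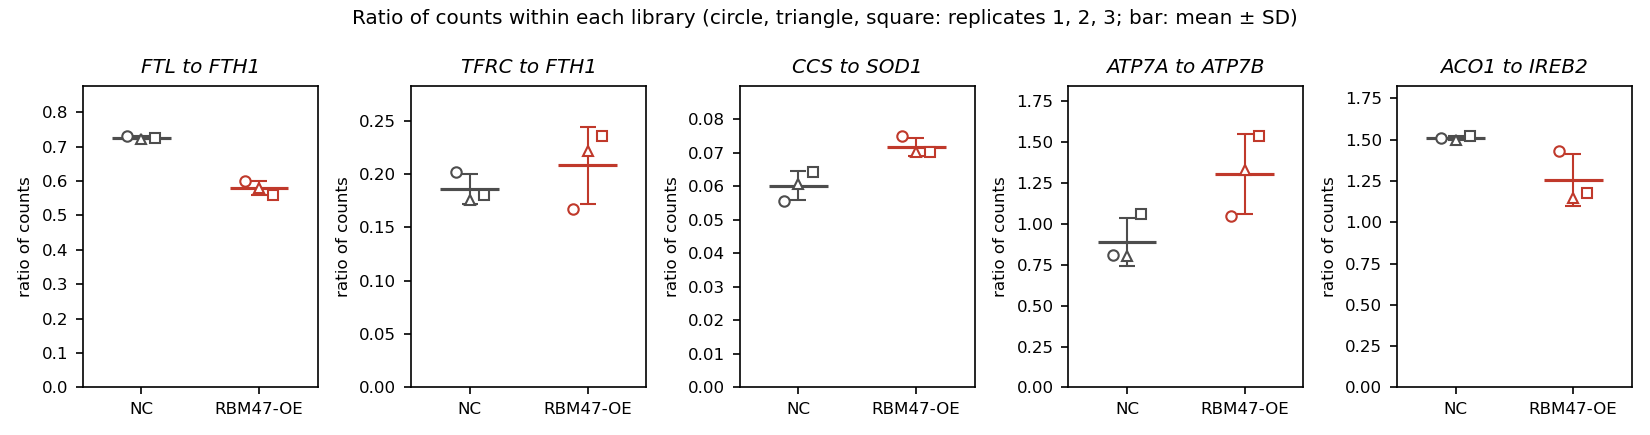
Ratios of counts of 5 gene pairs within each library, with points for the 3 libraries of each group and bars for the mean ± SD. The FTL to FTH1 ratio was 0.721 to 0.730 in NC and 0.560 to 0.599 in RBM47-OE, while the TFRC to FTH1 ratios of the groups overlapped.

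Other copper genes moved in both directions. Of 25 listed genes 22 were tested: CP and LOX did not pass the filter on low counts, and SOD3 was not analysed here. In RBM47-OE 4 rose, 5 fell and 13 did not pass the edgeR test, which is 40.9% called beside 35.9% of all genes, with a median log2 fold change of 0.14 against 0.00 over all genes tested. XIAP, an inhibitor of apoptosis that binds copper, rose from 47.7 ± 2.01 to 61.0 ± 6.41 CPM (SD, n = 3). COX11, which inserts copper into cytochrome c oxidase, and STEAP2, a metalloreductase, rose by log2 fold changes of 0.36 and 0.40 (edgeR adjusted p = 0.0022 and 0.011). CUTA went from 92.7 ± 2.68 to 68.8 ± 9.45 CPM, a log2 fold change of -0.43 (edgeR adjusted p = 0.00034). SCO2, a copper chaperone of cytochrome c oxidase, and SLC25A3, the mitochondrial phosphate and copper carrier, had log2 fold changes of -0.41 and -0.26 (edgeR adjusted p = 0.00054 and 0.0065). STEAP2 lost its call without NC replicate 2 (edgeR adjusted p = 0.056) or RBM47-OE replicate 2 (0.14), and SLC25A3 without NC replicate 1 (0.058). Without RBM47-OE replicate 1, 10 copper genes rose, and without NC replicate 2 the count was 2. Without NC replicate 1, NC replicate 2 or RBM47-OE replicate 2, the number that fell was 2, 3 and 3. The GC offsets ended the calls of all 3 named genes that rose: XIAP went to 0.06 (exons) and 0.03 (canonical transcript), COX11 to 0.12 and 0.0038, and STEAP2 to 0.05 and 0.03 (edgeR adjusted p = 0.26 to 0.98). SCO2 went to -0.19 and -0.20 and was no longer called (edgeR adjusted p = 0.063 and 0.053), CUTA went to -0.27 and -0.28, and SLC25A3 to -0.44 and -0.43. With these offsets 1 copper gene rose and 4 (exons) or 5 (canonical transcript) fell, where 14.5% and 13.4% of all genes were called. The gene that rose in both was COX19, an assembly factor of cytochrome c oxidase named after its values were seen, at log2 fold changes of 0.41 and 0.38 (edgeR adjusted p = 0.021 and 0.036).

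Of the 29 listed iron genes 25 were tested, and 64% of these were called beside 35.9% of all genes tested. TF, HAMP and TMPRSS6 did not pass the filter, and FTMT was not analysed here. In RBM47-OE 10 rose, 6 fell and 9 did not pass, with a median log2 fold change of 0.23. LCN2, which binds iron-carrying siderophores, rose from 3.50 ± 0.469 to 7.03 ± 2.09 CPM (log2 fold change 1.00, edgeR adjusted p = 0.00021), and HMOX1, the inducible enzyme of heme breakdown, fell from 44.8 ± 3.09 to 29.2 ± 2.50 CPM (log2 fold change -0.62, edgeR adjusted p = 3.2e-05). The study had itself selected both genes on these samples, so their directions are not independent evidence. Both also count in the share of the list that was called, and no conclusion about the list is drawn from that share. NCOA4, the receptor that sends ferritin to autophagy, rose by a log2 fold change of 0.41 (edgeR adjusted p = 0.00038), and CDC42BPA rose by 0.37. HMOX2, the constitutive heme oxygenase, had a log2 fold change of -0.39 (edgeR adjusted p = 0.00028). The iron exporter SLC40A1 held a match to the element in the 5′ UTR, and TF and CDC14A each held 1 in the 3′ UTR. Leaving out NC replicate 2, NC replicate 3, RBM47-OE replicate 2 or RBM47-OE replicate 3 left 4, 5, 6 and 5 iron genes that rose, and 4 fell without NC replicate 1 or NC replicate 2. With the GC offsets NCOA4 went to 0.25 (exons) and 0.21 (canonical transcript), HMOX2 to -0.22 in both and HMOX1 to -0.43 in both, and all 3 were still called, as was LCN2 at 1.19 and 1.17. CDC42BPA went to 0.16 and 0.22 and was no longer called with the exon offset (edgeR adjusted p = 0.059). In these fits 6 rose and 3 fell for the exons, where 14.5% of all genes were called, and 7 rose and 3 fell for the canonical transcript, where 13.4% were.

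Of the 39 listed genes of iron-sulfur cluster and heme synthesis 38 were tested (FDX2 did not pass the filter), and 39.5% were called beside 35.9% of all genes tested. In RBM47-OE 6 rose, 9 fell and 23 did not pass, with a median log2 fold change of 0.02. HSPA9, the mitochondrial chaperone, and CISD2 rose by log2 fold changes of 0.28 and 0.32 (edgeR adjusted p = 0.0052 and 0.0095). CISD2 lost its call without NC replicate 3 (edgeR adjusted p = 0.055) or RBM47-OE replicate 3 (0.11). UROD, an enzyme of heme synthesis, and CIAO2B and NUBP2, of cytosolic iron-sulfur assembly, had log2 fold changes of -0.39, -0.35 and -0.30 (edgeR adjusted p = 0.00035, 0.00083 and 0.0019). The number that rose was 3 without NC replicate 1 or NC replicate 2, and the number that fell was 6 without NC replicate 2. With the GC offsets HSPA9 went to 0.08 (exons) and 0.05 (canonical transcript) and CISD2 to -0.0047 and -0.038, and neither was called (edgeR adjusted p = 0.38 to 0.98). NUBP2 went to -0.09 in both and was no longer called (edgeR adjusted p = 0.32 and 0.27), whereas UROD, at -0.25 and -0.24, and CIAO2B, at -0.17 and -0.18, were. In these fits 3 rose and 4 fell for the exons, where 14.5% of all genes were called, and 3 rose and 3 fell for the canonical transcript, where 13.4% were. The 3 that rose were ALAD, BOLA2 and ABCB6 in both, named after their values were seen.

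**Figure D5:**
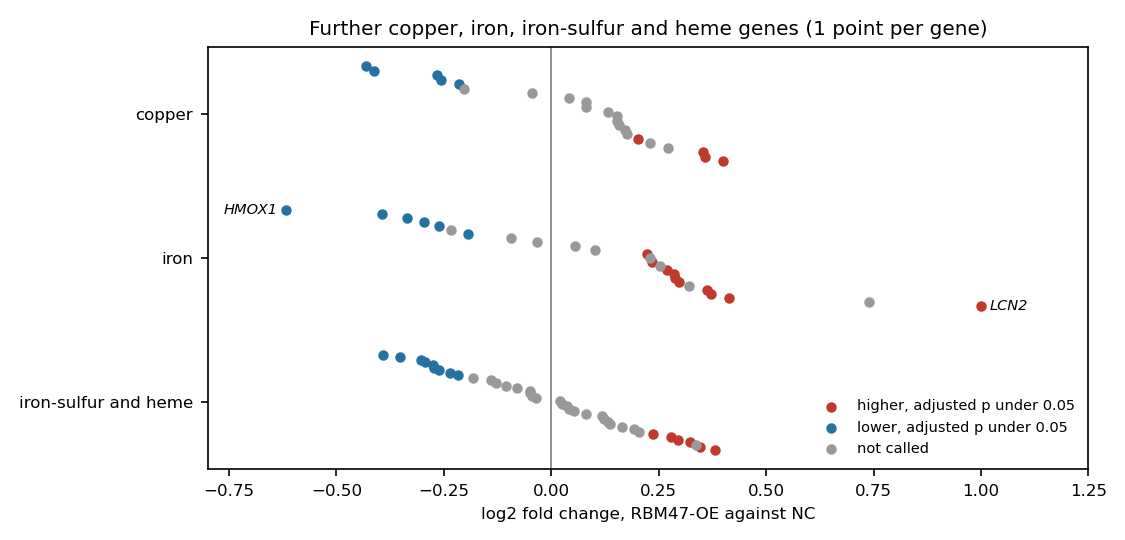
Log2 fold change of RBM47-OE against NC for every tested gene of the copper, iron, and iron-sulfur and heme lists, with genes past an edgeR adjusted p of 0.05 in red (higher) or blue (lower). The medians of the 3 lists were 0.14, 0.23 and 0.02, and the highest and lowest values were those of LCN2 at 1.00 and HMOX1 at -0.62.

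The 5 genes whose log2 CPM, centred on the NC mean, lay nearest to that of ATOX1 over the 6 libraries were ATP5MF-PTCD1, CTD-2525I3.3, DDN, ATP5ME and CTD-2369P2.10, with root mean square log2 differences of 0.039, 0.057, 0.059, 0.062 and 0.071. ATP5ME encodes a subunit of ATP synthase. ATP5MF-PTCD1 is a readthrough gene that shares exons with its neighbours, so reads could be split between them. Among the copper and iron genes FTL and SOD1 came nearest to ATOX1, at 0.31 and 0.33. Counting ATOX1 itself, 2814 and 3378 genes were nearer than each.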

How the data were processed

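The authors filtered the reads with FASTX-Toolkit and aligned them to GRCh38 with HISAT2. They deposited counts of uniquely mapped reads per gene (28491 genes) and FPKM values (28244 genes), 1 column per library. The counter, its strand setting and the annotation release are not given in the sources used here, and the labels and methods name different library kits. Their own comparisons entered the choice of genes, through ATOX1, but gave none of the values here.

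Counts were tested with edgeR 4.0.16 in R 4.3.3 (quasi-likelihood test, TMM, filterByExpr with a minimum count of 10 and a minimum total of 15), with Benjamini-Hochberg adjustment over 16260 genes and condition as the only term. Log2 CPM used a prior count of 2. GC offsets were loess fits (span 0.3) per library on GENCODE 44 exons or, added after the data were seen, canonical transcripts. DESeq2 1.42.0 on the counts and limma 3.58.1 on log2(FPKM + 1) or log2(FPKM + 0.1) were alternatives, as were other scalings, filters, a replicate block and leaving out each library. Ratios were compared by exact permutation tests.

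The members and lists were chosen with earlier results of these data known. Genes named from the lists were those with an adjusted p under 0.05 and a fold change over 1.5, and the up to 3 with the smallest p in each direction. Some genes that this rule names are not reported here. The 5 genes most like ATOX1 had the smallest root mean square difference over 6 libraries. On simulated counts of 16260 genes for this comparison, edgeR recovered 200 of 200 genes changed by 1.5 on the log2 scale and called 13 unchanged genes. With a simulated GC trend it called 2414 unchanged genes, and 10 with the GC offset. The simulated trend was linear in exon GC on the log2 scale and alike in all RBM47-OE libraries. The offset was fitted on the same exon GC, so its success was built in. The simulation cannot say how the offset acts on the trends in these data, which differed between libraries. Depth was 26792409 to 35477983 counts per library, and intervals cover the spread between libraries only.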

Additional observations from a re-analysis of the deposited data

How the results depend on the processing

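Of 522 single-gene values under alternatives, for 29 genes, 437 kept direction and side of the threshold, 70 were no longer past it, 2 were newly past it (CCS with the canonical GC offset, FTH1 with library totals), 11 were reversed, and 2 of ATOX1 moved by over 1 SD (canonical GC offset, -0.47, and limma on log2(FPKM + 1), -0.48). For ATP7B the reversed values were 0.0069 with library totals, 0.040 with the canonical GC offset, and 0.0087 and 0.019 with limma on FPKM + 1 and + 0.1. The other reversals came with GC offsets (exons, exons with the replicate block, canonical): -0.0090, -0.0093 and -0.028 for ACO1, -0.0047, -0.0089 and -0.038 for CISD2, and -0.0092 for TFRC with the canonical offset. The TFRC to FTH1 difference became -0.12 (exons) and -0.16 (canonical). Over all genes, 975 rose and 1375 fell with the exon GC offset, and 1024 and 1427 with the replicate block added. The canonical GC offset gave 877 and 1296. The study thresholds, applied here to edgeR p-values, gave 245 and 142. The limma fits called 1586 and 1599 as lower. Among the 9 genes beside ATOX1, 0 rose and 0 fell with the exon GC offset, with or without the block, and under the study thresholds, 1 and 1 with the canonical GC offset; 1 fell with RLE factors, library totals or no filter, and 0 with the replicate block or either limma fit. Of the copper list 8 rose and 3 fell with library totals, 1 rose with each GC offset, 3 fell with each limma fit, and 0 and 0 passed the study thresholds. Of the iron list 6 rose with the exon GC offset with or without the block, 3 fell with the exon and with the canonical GC offset, and 1 and 1 passed the study thresholds. Of the iron-sulfur and heme list 3 rose with each GC offset, 4, 3 and 3 fell (exons, with block, canonical), and 0 and 0 passed the study thresholds. With single libraries left out, the counts that rose and fell ran from 2090 to 3864 and 1675 to 3508 over all genes, 2 to 3 and 0 to 2 for the 9 genes, 2 to 10 and 2 to 5 for copper, 4 to 10 and 4 to 6 for iron, and 3 to 8 and 6 to 10 for iron-sulfur and heme. The ratio differences ran from -0.35 to -0.30 (FTL to FTH1), 0.20 to 0.30 (CCS to SOD1), -0.38 to -0.21 (ACO1 to IREB2), 0.41 to 0.69 (ATP7A to ATP7B) and 0.05 to 0.30 (TFRC to FTH1). Deviations of same-numbered libraries correlated at -0.060, -0.015 and -0.016, so no pairing by replicate number was seen. With 3 libraries per group these correlations depend on each other and cannot show that the libraries were unpaired. With the block, SOD1 and FTL were no longer past the threshold (edgeR adjusted p = 0.098 and 0.071). The cause of these changes was not tested. Library totals moved the median of all genes by 0.06 on the log2 scale.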
